A study of Saccharomyces cerevisiae with 3 samples.

Results

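The genes described here are 56 enzymes of amino acid synthesis and GCN4, the transcription factor that controls many of them in budding yeast. They were chosen by pathway and systematic name, with no threshold on measured values but with earlier results of these data known, and make up 57 of the 6207 open reading frames (ORFs) on the arrays. They cover the pathways to arginine, histidine, tryptophan and the branched-chain amino acids, lysine, threonine, asparagine, serine and glycine, glutamate and glutamine, the common aromatic pathway and the sulfur amino acids. RNA from Saccharomyces cerevisiae treated with caspofungin at 15 ng/ml for 2 h was hybridized against RNA from the untreated part of the same culture, on 2-colour arrays. Both parts were the strain MID2extWSC1cyt in the BY4741 background, grown in YEPD, a rich medium, at 24 °C. By its name the strain joins the outer part of the wall sensor Mid2 to the inner part of the sensor Wsc1. The parental strain was not analysed here, so every value describes caspofungin in cells that carry the chimera. BY4741 is known for deletions of HIS3, LEU2, MET17 (also called MET15) and URA3, which treated and untreated cells would share, and which leave histidine, leucine and methionine synthesis incomplete.

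Caspofungin inhibits the synthase of the main glucan of the yeast wall. Amino acid enzymes are best known in yeast for general amino acid control. When amino acids run short, the kinase Gcn2 senses uncharged transfer RNA, translation of GCN4 mRNA rises, and Gcn4 protein activates genes in most of these pathways. Because this control acts mainly on translation and protein stability, the level of GCN4 mRNA need not follow the activity of the protein. Several pathways also have regulators of their own, such as Leu3 for leucine and Met4 for sulfur amino acids.

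Each array gives 1 log2 ratio per ORF. The treated RNA was labelled with Cy3 on array 1 and with Cy5 on arrays 2 and 4. The study planned 2 cultures with 2 hybridizations each, and arrays 1, 2 and 4 of the 4 were analysed. Since arrays 2 and 4 were labelled the same way, they belong to different cultures, while array 1 shares a culture with 1 of them, which the labels do not name. No source used here gives the direction of the deposited ratio. Array 1 correlated positively with both others, and the arrays were therefore read as running the same way. Positive would mean higher with caspofungin if the ratio is caspofungin over untreated, but a dye effect on single genes would give the same positive correlation. The signs below are those of the deposited values, and a gene is not called higher or lower with caspofungin.

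The arrays differed in coverage and centring. They held values for 60.4%, 45.6% and 13.8% of all ORFs on arrays 1, 2 and 4, with medians of -0.24, -0.14 and -0.93 and standard deviations (SD) of 0.809, 0.436 and 1.55. The amino acid genes were measured more often, with 82.5%, 82.5% and 43.9% of the 57. A value on every array was present for 22 of them (38.6%), against 11.6% of all ORFs, and 24 more had values on arrays 1 and 2 only. THR1 (YHR025W) had values on arrays 1 and 4, LYS1 (YIR034C) on array 2 alone, and HIS1 (YER055C) and HOM2 (YDR158W) on array 4 alone. The other 7 had no value on any array, among them ARG1 (YOL058W), ARG3 (YJL088W), ARG8 (YOL140W), LYS2 (YBR115C), THR4 (YCR053W) and ARO4 (YBR249C). The arginine pathway thus kept 2 of its 6 genes. No source used here says what left a spot empty, so an empty cell gives no level.

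As a set the amino acid genes lay in the upper part of each array. Their median values were 0.39, 0.06 and -0.32 on arrays 1, 2 and 4, and the median percentile among all measured ORFs was 80.8, 72.6 and 73.5. On array 1, 41 of 47 were above the array's median, on array 2, 34 of 47, and on array 4, 18 of 25. On arrays 1 and 2 together, 29 of 46 genes (63.0%) were above the median of both, where 31.4% of all ORFs were, and 2 of 46 (4.35%) were below both, where 25.9% of all ORFs were. Counted from 0 on the deposited scale, 21 of 46 were positive on both arrays (background 20.5%) and 7 were negative on both (background 47.1%). If array 1 were turned the other way, 5 would be positive and 13 negative on both. The shares of all ORFs were not computed for that setting, so these 2 counts cannot be read as a result about the genes. The top 10% of both arrays held 11 of the 46 (23.9%), where 5.78% of all ORFs lay, and the bottom 10% of both held 0 (background 0.568%). Those 11 were HIS4, TRP5, ILV2, ILV5, LEU4, LEU9, ASN1, ASN2, SHM1, SHM2 and MET6.

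**Figure D1:**
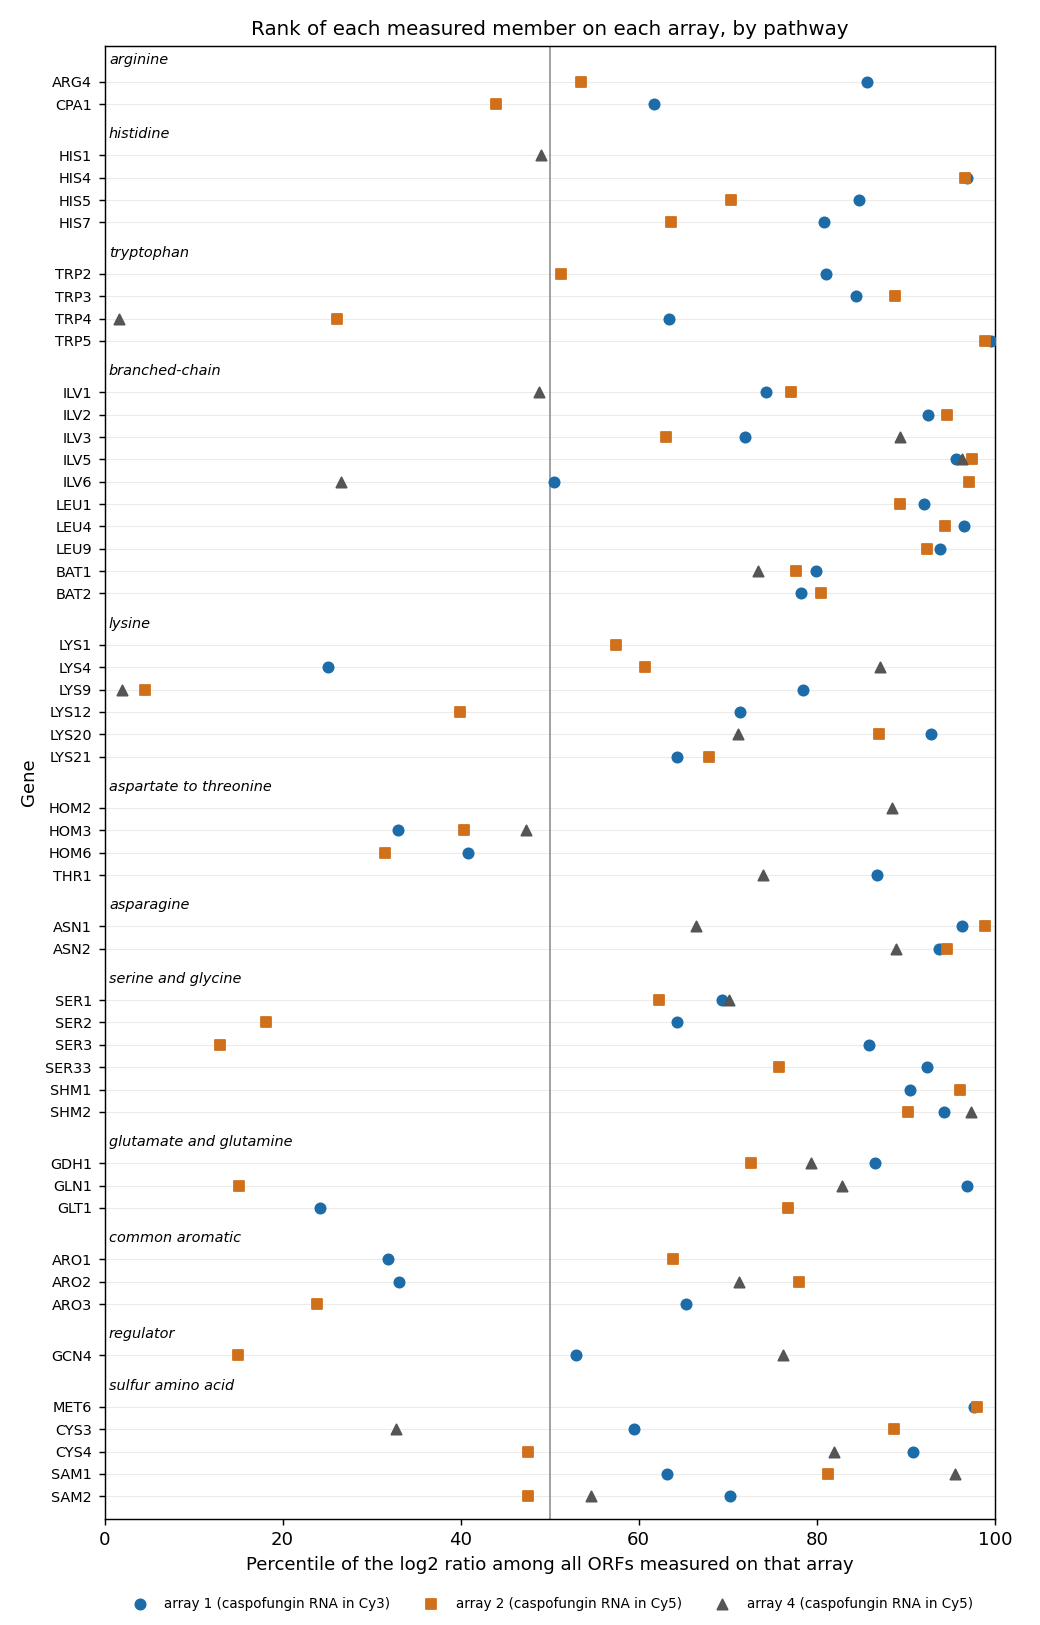
Percentile of each measured gene's log2 ratio (horizontal axis, 0 to 100) among all ORFs measured on the same array, with genes grouped by pathway down the page and 1 marker per array. The grey line is the array median. All 10 branched-chain genes lie right of it on arrays 1 and 2, while HOM3 and HOM6 lie left of it on both.

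Gene length moved with the values. Across all ORFs, Spearman's rho between length and log2 ratio was 0.35 for the 3594 ORFs of array 1 with a length, 0.39 for the 2727 of array 2 and 0.05 for the 810 of array 4, taking lengths from RefSeq. The amino acid genes on arrays 1 and 2 had a median length of 1401 bp, against 1152 bp for all ORFs there. After a smooth length trend was subtracted from each array, 24 of 46 genes (52.2%) were above the trend on both arrays 1 and 2 (background 31.4%) and 4 were below it on both (background 22.5%). The count above on array 1 was 40 of 47, and on array 2 it was 28 of 47. The part of length in the values was not tested beyond this.

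No amino acid gene passed the test across 3 arrays. The limma fit had terms for caspofungin and for dye over the 723 ORFs on every array. In it, 0 of the 22 genes had an adjusted p under 0.05 (background 0.277%). Of all 723 ORFs, 23 had an unadjusted p under 0.05, and of the 22 genes 0 did. Fitted log2 values ran from -1.25 to 1.15 with a standard error (SE) of 0.73 for each gene, 11 positive (background 26.6%) and 11 negative (background 73.4%). Their median was 0.03, against -0.36 for all 723 ORFs, and 17 of the 22 lay above -0.36. The fit leaves 1 residual degree of freedom per gene and counts the arrays as independent although array 1 shares a culture with another. The moderation in limma pooled the spread over the 723 ORFs, which is why the SE is the same for each gene. A gene's own spread between arrays therefore did not enter its SE or p-value. A size of at least 2-fold with a positive sign on every array was reached by ILV5 and SHM2 (2 of 22, 9.09%; background 2.77%), and with a negative sign by TRP4 (1 of 22, 4.55%; background 10.4%). Without regard to size, 3 genes were positive on every array (background 7.61%) and 3 were negative on every array (background 45.4%). With each array centred on its median, the median of all 723 ORFs moved to 0.03 and that of the 22 genes to 0.42. The split of the 22 was then 18 positive (background 51.7%) and 4 negative (TRP4, LYS9, HOM3 and ILV6; background 48.3%). By the 2-fold rule 4 genes were then positive (background 6.5%) and 0 negative (background 1.94%).

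**Figure D2:**
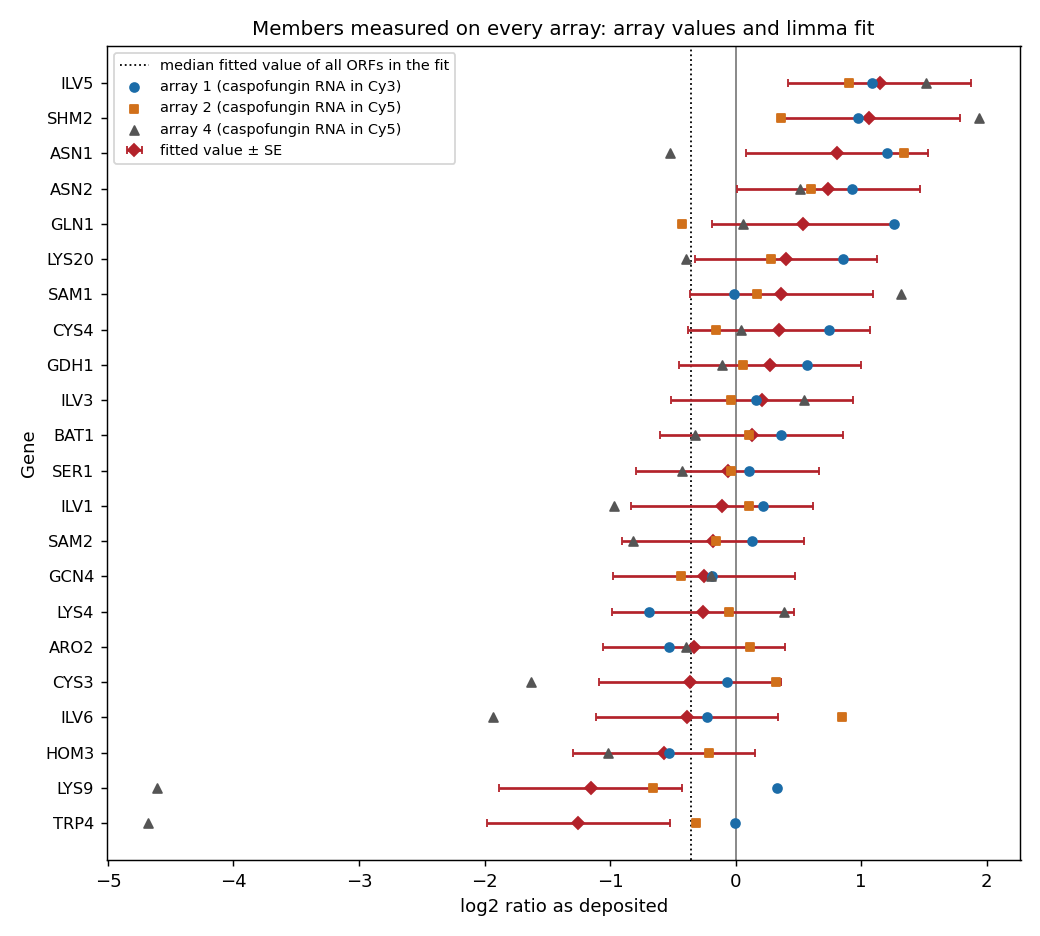
Log2 ratios as deposited (horizontal axis) for the 22 genes measured on every array, with 1 marker per array, the fitted value of limma as a diamond and its SE as a bar. ILV5, SHM2 and ASN2 have all 3 arrays right of 0, and the lowest values, at -4.68 for TRP4 and -4.61 for LYS9, come from array 4.

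On arrays 1 and 2 alone, where 46 of the genes could be fitted among 2818 ORFs, TRP5 passed and the other 45 did not (1 of 46, 2.17%; background 0.887%). The 25 ORFs called there were all positive. The genes' median was 0.20 in this fit against -0.18 for all ORFs, and 38 of the 46 lay above -0.18. With both arrays centred on their medians, a setting chosen after the values were seen, 6 genes passed (13.0%; background 4.76%): TRP5, ASN1, MET6, HIS4, ILV5 and LEU4, each positive. Whether arrays 1 and 2 come from 1 culture or from both is not known, so this spread may be technical.

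**Figure D3:**
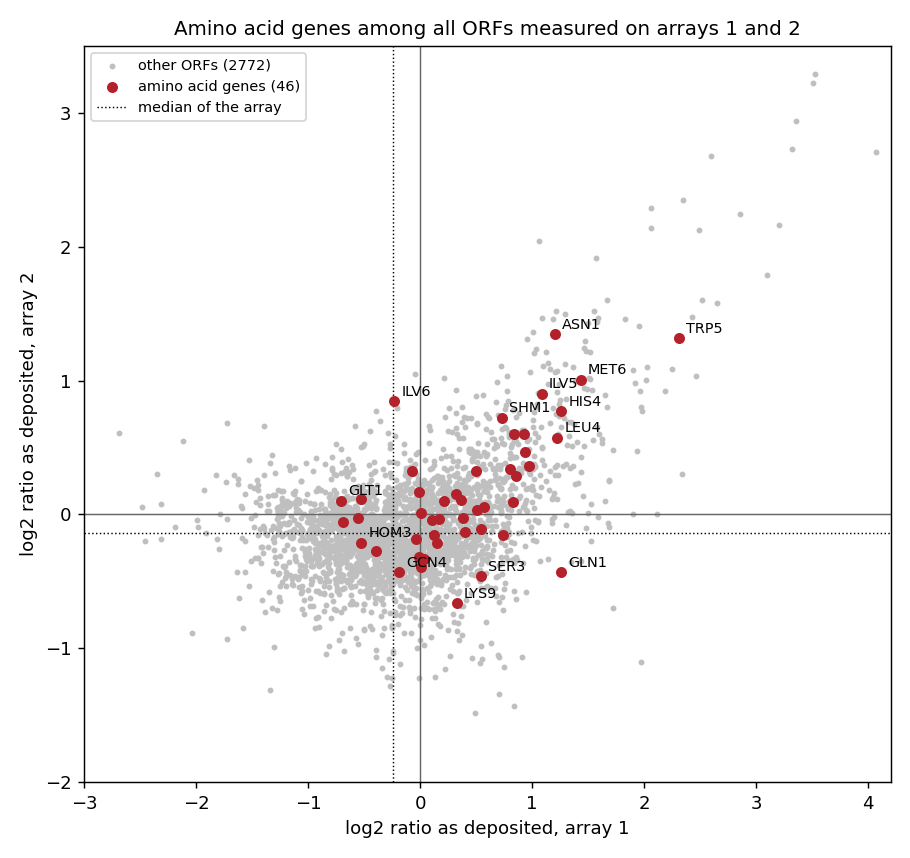
Log2 ratios on array 1 (horizontal) and array 2 (vertical) for the 46 amino acid genes (red) and the 2772 other ORFs measured on both (grey), with dotted lines at the array medians. TRP5, ASN1, MET6, HIS4 and ILV5 lie at the upper right, GLN1 and LYS9 are positive on array 1 and negative on array 2, and ILV6 the reverse; 1 ORF that is no amino acid gene falls outside the axes.

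The branched-chain pathway makes isoleucine, valine and leucine. It was the largest group, with 10 of 10 genes on arrays 1 and 2 and 5 on array 4. The tryptophan, asparagine, serine and glycine, glutamate and glutamine, and sulfur groups were also complete on arrays 1 and 2. LEU2 was not among the 10. All 10 lay above the median of both arrays, ILV6 by the smallest margin at the 50.5 percentile of array 1, 8 were positive on both, and none was negative on both. ILV5 (YLR355C), the reductoisomerase shared by isoleucine and valine synthesis, had 1.08, 0.90 and 1.52 on arrays 1, 2 and 4, at the 95.6, 97.4 and 96.3 percentile. Its fitted value was 1.15 ± 0.73 (SE, 3 arrays; limma adjusted p = 0.868), the highest of the 22. ILV2 (YMR108W), the catalytic subunit of acetolactate synthase, had 0.83 and 0.60 on arrays 1 and 2. Its regulatory subunit ILV6 (YCL009C) had -0.23, 0.85 and -1.93 on arrays 1, 2 and 4, so the arrays disagreed by more than for any other gene of this pathway. ILV1 (YER086W), threonine deaminase, had 0.22, 0.10 and -0.97, and ILV3 (YJR016C), the dehydratase, had 0.16, -0.03 and 0.54. Neither kept a sign on every array.

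LEU1, LEU4 and LEU9 of the leucine branch were positive on arrays 1 and 2 and had no value on array 4. LEU4 (YNL104C) and LEU9 (YOR108W), the paralogous isopropylmalate synthases that open the branch, had 1.22 and 0.94 on array 1, and 0.57 and 0.46 on array 2. LEU1 (YGL009C), the isomerase that follows, had 0.80 and 0.34. The paralogous aminotransferases BAT1 (YHR208W, mitochondrial) and BAT2 (YJR148W, cytosolic) were lower and close to each other, with 0.36 and 0.32 on array 1 and 0.11 and 0.16 on array 2. BAT1 had -0.32 on array 4, its 73.5 percentile there. The median over the 10 genes of the mean of arrays 1 and 2 was 0.44, or 0.56 after the length trend was subtracted, where the median over all ORFs was -0.18, or 0.04 after subtraction.

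Tryptophan genes differed along their pathway. TRP5 (YGL026C), tryptophan synthase, which performs the last step, had 2.31 and 1.32 on arrays 1 and 2. These were the 99.6 and 98.9 percentile, and its mean of 1.82 ± 0.31 (SE, arrays 1 and 2; limma adjusted p = 0.0321) was the highest of all amino acid genes. With the length trend subtracted its adjusted p in limma was 0.031. TRP2 (YER090W) and TRP3 (YKL211C), the subunits of anthranilate synthase, had 0.40 and 0.50 on array 1, and -0.13 and 0.32 on array 2. TRP4 (YDR354W), the phosphoribosyltransferase of the next step, had -0.01, -0.32 and -4.68 on arrays 1, 2 and 4. Its fitted value of -1.25 ± 0.73 (SE, 3 arrays; limma adjusted p = 0.868) was the lowest of the 22 and rested on array 4, since the mean of arrays 1 and 2 was -0.16. TRP2, TRP3 and TRP5 had no value on array 4. TRP1 was not among the genes chosen here, and its only value was -1.34 on array 1, at the 7.0 percentile.

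In the common aromatic pathway, which supplies chorismate to tryptophan, no gene was positive on both arrays 1 and 2. ARO1 (YDR127W), the multifunctional enzyme of the middle steps, had -0.56 and -0.02 on arrays 1 and 2. ARO2 (YGL148W), chorismate synthase, had -0.53, 0.12 and -0.39 on arrays 1, 2 and 4. ARO3 (YDR035W), a synthase of the first step, had 0.03 and -0.33. The median mean of arrays 1 and 2 was -0.21 over these 3 genes, near that of all ORFs.

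Among histidine genes HIS4 (YCL030C), a multifunctional enzyme and a long-used reporter of Gcn4 activity, had the highest values, 1.26 and 0.77 on arrays 1 and 2. It lay at the 96.8 and 96.6 percentile, with a mean of 1.01 ± 0.27 (SE, arrays 1 and 2; limma adjusted p = 0.172). HIS5 (YIL116W), an aminotransferase, had 0.51 and 0.04, and HIS7 (YBR248C), imidazole glycerol phosphate synthase, had 0.39 and -0.03. All 3 were above the median of both arrays. HIS1, the first enzyme of the pathway, had -0.96 on array 4, at the 49.1 percentile.

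Of the arginine genes, ARG4 (YHR018C), argininosuccinate lyase, had 0.54 and -0.11 on arrays 1 and 2. CPA1 (YOR303W), the small subunit of carbamoyl phosphate synthetase, had -0.04 and -0.18. Neither had a value on array 4, and their mean values of 0.21 ± 0.28 and -0.11 ± 0.26 (SE, arrays 1 and 2) did not pass (limma adjusted p = 0.696 for ARG4 and 0.833 for CPA1).

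The asparagine synthetases were the smallest enzyme group and had the highest median on arrays 1 and 2, 1.02 over 2 genes. ASN1 (YPR145W) had 1.20, 1.34 and -0.53 on arrays 1, 2 and 4, and ASN2 (YGR124W) had 0.92, 0.60 and 0.51. ASN2 was thus positive on every array, while ASN1, the highest amino acid gene on array 2, was negative on array 4. Their fitted values were 0.81 ± 0.73 and 0.74 ± 0.73 (SE, 3 arrays; limma adjusted p = 0.868 for ASN1 and 0.890 for ASN2). Without array 4 the value of ASN1 was 1.27 ± 0.26 (SE, arrays 1 and 2; limma adjusted p = 0.0674). They are close copies whose spots can cross-hybridize, and the 2 genes may not be independent observations.

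In serine and glycine synthesis the serine hydroxymethyltransferases had the higher values on array 2, while on array 1 a first-step enzyme, SER33, lay between them; differences between steps were not tested. SHM2 (YLR058C), the cytosolic serine hydroxymethyltransferase, had 0.97, 0.36 and 1.94 on arrays 1, 2 and 4, at the 94.3, 90.3 and 97.3 percentile. Its fitted value was 1.06 ± 0.73 (SE, 3 arrays; limma adjusted p = 0.868), and 0.67 on arrays 1 and 2. SHM1 (YBR263W), the mitochondrial enzyme, had 0.73 and 0.72 on arrays 1 and 2. SER3 (YER081W) and SER33 (YIL074C), the paralogous phosphoglycerate dehydrogenases of the first step, had 0.54 and 0.83 on array 1, and -0.46 and 0.09 on array 2. SER1 (YOR184W), the aminotransferase, had 0.11, -0.04 and -0.43 on arrays 1, 2 and 4, and SER2 (YGR208W), the phosphatase, had 0.01 and -0.39 on arrays 1 and 2. All 6 genes were higher on array 1 than on array 2, as were 35 of the 46 amino acid genes and 1428 of the 2818 ORFs.

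Of the sulfur amino acid genes chosen here, MET6 alone was in the top 10% of both arrays 1 and 2. MET6 (YER091C), the methionine synthase, had 1.43 and 1.01 on arrays 1 and 2, at the 97.6 and 98.0 percentile, with a mean of 1.22 ± 0.27 (SE, arrays 1 and 2; limma adjusted p = 0.0861). CYS4 (YGR155W), cystathionine beta-synthase, had 0.74, -0.16 and 0.05 on arrays 1, 2 and 4, and CYS3 (YAL012W), cystathionine gamma-lyase, had -0.07, 0.32 and -1.63. The S-adenosylmethionine synthetases SAM1 (YLR180W) and SAM2 (YDR502C) are close copies. SAM1 had -0.01, 0.17 and 1.31, and SAM2 had 0.13, -0.16 and -0.82, so the difference of SAM1 minus SAM2 was -0.14, 0.32 and 2.13 on arrays 1, 2 and 4. None of CYS3, CYS4, SAM1 and SAM2 kept a sign on every array. MET12, not among the genes chosen here and added with its values known, was also in the top 10% of both arrays 1 and 2. It had 1.01 and 0.71 there, at the 94.7 and 96.0 percentile. MET13, also not chosen, had -1.11 and 0.05, at the 11.7 and 72.1 percentile. MET2, MET3 and MET14, likewise not chosen, had values on array 1 alone, at its 4.5, 43.4 and 2.1 percentile.

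Lysine genes were spread on both sides. LYS20 (YDL182W), a homocitrate synthase, had 0.86, 0.28 and -0.40 on arrays 1, 2 and 4, and its paralogue LYS21 (YDL131W) had 0.01 on both arrays 1 and 2. LYS4 (YDR234W), homoaconitase, had -0.69, -0.05 and 0.39. LYS9 (YNR050C), a saccharopine dehydrogenase, had 0.33, -0.66 and -4.61. Its fitted caspofungin term was -1.16 ± 0.73 (SE, 3 arrays; limma adjusted p = 0.868) and its fitted dye term -1.48; since only array 1 has Cy3 on the treated RNA, dye and array 1 cannot be told apart. LYS12 (YIL094C), homoisocitrate dehydrogenase, had 0.15 and -0.21 on arrays 1 and 2. LYS1, the dehydrogenase of the last step, had -0.08 on array 2.

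The route from aspartate to threonine was the only one with members below the median of both arrays 1 and 2. Of its 5 genes, only HOM3 and HOM6 had values on both. HOM3 (YER052C), aspartate kinase, the first enzyme, had -0.53, -0.21 and -1.02 on arrays 1, 2 and 4, negative on each. Its fitted value was -0.57 ± 0.73 (SE, 3 arrays; limma adjusted p = 0.943), and its percentiles of 33.0, 40.4 and 47.4 were below the middle of every array. HOM6 (YJR139C), homoserine dehydrogenase, had -0.39 and -0.27. THR1, homoserine kinase, had 0.57 and -0.29 on arrays 1 and 4, and HOM2, the semialdehyde dehydrogenase between HOM3 and HOM6, had 0.50 on array 4. After the length trend was subtracted, HOM3 and HOM6 were still below it on arrays 1 and 2. So were CPA1 of arginine and LYS4 of lysine synthesis (4 of 46, 8.7%, background 22.5%), so that position was not particular to this route.

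The enzymes that build glutamate and glutamine, the nitrogen donors for the other pathways, did not share a pattern. GDH1 (YOR375C), glutamate dehydrogenase, had 0.57, 0.06 and -0.11 on arrays 1, 2 and 4. GLN1 (YPR035W), glutamine synthetase, had 1.26, -0.43 and 0.06, the widest gap between arrays 1 and 2 of the 46 genes. GLT1 (YDL171C), glutamate synthase and the longest of the genes, had -0.71 and 0.10 on arrays 1 and 2, and was the lowest amino acid gene on array 1.

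GCN4 (YEL009C) had -0.19, -0.43 and -0.20 on arrays 1, 2 and 4. These values differed little from each other, with an SD of 0.138, the smallest of the 22 genes, and were negative on every array. The fitted value was -0.25 ± 0.73 (SE, 3 arrays; limma adjusted p = 0.971), or 0.14 after median centring and 0.20 with the length trend subtracted. They stood at the 53.0, 15.0 and 76.3 percentile, and at 0.05, -0.29 and 0.74 relative to each array's median. The mRNA of GCN4 therefore lay above the middle of arrays 1 and 4 and low on array 2, and no change was detectable with 3 arrays. Gcn4 protein was not measured.

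Further enzymes of these pathways had a median close to that of all ORFs. Of 34 further enzymes, 15 had values on arrays 1 and 2. Of these, 3 were positive on both (background 20.5%), 4 negative on both (background 47.1%) and 8 mixed. The 15 include HIS3, negative on both, and LEU2, mixed, which BY4741 is known to lack, so these counts and medians are not of enzyme mRNA alone. The median over the 15 of the mean of arrays 1 and 2 was -0.16, against 0.20 for the 46 genes above. After the length trend was subtracted these medians were 0.10 and 0.22, so the gap was smaller, and the difference was not tested. Only 3 had a value on every array. ARO8, an aromatic aminotransferase, had 0.69, 0.23 and -0.79, PRO2 of proline synthesis had -0.38, -0.09 and -0.91, and AAT2, aspartate aminotransferase, had -0.12, 0.31 and 0.02. Of 18 regulators, 7 had values on arrays 1 and 2, and none had a value on array 4. Of the 7, 2 were positive on both (background 20.5%) and 3 negative on both (background 47.1%). Their median of the mean of arrays 1 and 2 was -0.48, against -0.18 for all ORFs, and after the length trend was subtracted it was -0.0076, against 0.04.

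Agreement between arrays set the limit of all these values. Among the 46 genes Pearson's r between arrays 1 and 2 was 0.60 (rho 0.50), and among all 2818 ORFs it was 0.44 (rho 0.30). Among the 22 to 23 genes shared with array 4, r was 0.30 for arrays 1 and 4 (all ORFs 0.39) and 0.36 for arrays 2 and 4 (all ORFs 0.35). Counted from 0, the sign was the same on both arrays for 60.9% of the amino acid genes on arrays 1 and 2, 52.2% on arrays 1 and 4 and 45.5% on arrays 2 and 4, against 67.5%, 69.0% and 66.6% of all ORFs. The shares of all ORFs include the negative median of each array. Counted from the medians of arrays 1 and 2, 63.0% of the amino acid genes were above both and 4.35% below both. Of all ORFs, 31.4% were above both and 25.9% below both. These are descriptions over genes, which are not independent replicates. The median absolute difference between arrays 1 and 2 was 0.406 for the amino acid genes and 0.394 for all ORFs. In the deposited values, array 4 was farthest from the other arrays for 15 of the 22 genes. Array 4 also had the lowest median and the largest SD over all ORFs. The share of all 723 ORFs was not computed, so this count cannot be read as a result about the genes.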

How the data were processed

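Values were read from the authors' deposited table of log2 ratios, with 6207 ORF rows and 2 control rows without values. The log base comes from the values themselves: taken as log2, 100% of them give ratios on a grid of 0.0001 (tolerance 0.01 of the grid). The scanner, background correction, normalization, ratio direction and rule for empty cells are not given in sources used here. Gene symbols and lengths came from the RefSeq gene table of assembly R64 (GCF_000146045.2); all 57 genes matched by locus tag.

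Gene-wise tests used limma 3.58.1 (R 4.3.3; lmFit and eBayes) on the deposited values of ORFs on every array, with terms for caspofungin and dye and Benjamini-Hochberg adjustment over all of them. The fits were tested on simulated data. Percentiles are ranks among ORFs measured on an array. The length trend was a lowess curve on log2 length. Genes and lists were chosen with earlier results of these data known. Every one of the 57 genes could be named. Of other lists, genes on every array, deletion markers and cell type markers could be named, and MET12 and TRP1 were added with their values known. A planned search for the Gcn4 site in promoters and an identity of paralogous proteins were not made. The labels name 2 cultures. In the fit with terms for caspofungin and dye, array 1 is alone in its labelling and is fitted exactly. The pooled spread behind the p-values of that fit is therefore the spread between arrays 2 and 4. Those arrays belong to different cultures, so that spread can hold culture differences as well as technical ones. In the fits of arrays 1 and 2 alone the spread may be technical. The number of arrays limits the precision.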

Additional observations from a re-analysis of the deposited data

How the results depend on the processing

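No paired analysis was possible because each array already holds both RNAs and the study has 1 comparison. The number of amino acid genes called stayed at 0 with no dye term, centring, equal spread, quantile normalization, more ORFs, array 1 or every sign turned, averaged cultures, robust moderation, the length trend removed, an adjusted p under 0.10 or an unadjusted p under 0.05. It was 0 to 1 with an array left out (TRP5, without array 4, where 25 of 2818 ORFs were called). It was 6 on centred arrays 1 and 2 (134 of 2818 ORFs), and 1 there with the length trend removed (37 of 2714 ORFs). The last 2 settings and the removal of the length trend were added with the values known. The 2 of 22 genes positive by at least 2-fold (background 2.77%) became 4 by centring (background 6.5%), 4 by centring and scaling and 1 by quantile normalization. They became 0 with array 1 turned, 1 with every sign turned, 1 with arrays 1 and 4 averaged and 0 at 3-fold. Over more genes they became 5 of 47 with ORFs on array 1 and another, 6 of 46 on centred arrays 1 and 2, and 5 of 46 there without the length trend. Leaving out each array gave 2 to 4, over 22 to 46 genes. The 1 negative gene of 22 (background 10.4%) became 0 after centring (background 1.94%), equal spread, quantile normalization, removal of the length trend and at 3-fold. The count was also 0 in both settings of arrays 1 and 2 alone, 2 with every sign turned or cultures averaged, and 0 to 2 leaving out each array. For the settings without a background here, the share of all ORFs was not computed, so these 2-fold counts cannot be read as a result about the genes. The genes positive on both arrays 1 and 2 were 21 of 46 (background 20.5%), 29 after centring (background 31.4%) and 24 without the length trend (background 31.4%). With array 1 turned they were 5, a setting for which no share of all ORFs was computed. Those negative on both were 7 (background 47.1%), or 2 after centring (background 25.9%), 4 without the length trend (background 22.5%) and 13 with array 1 turned. Signs of fitted values changed for 9 of the 22 genes with array 1 turned, 7 after centring (GCN4 among them), 6 without array 1 and 4 without array 4. ILV5, SHM2, SAM1 and HOM3 kept their signs in all 14 settings other than turning every array. The causes were not tested.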

Other observations

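HIS3 and LEU2, which BY4741 is known to lack, had values on arrays 1 and 2, with -1.20 and -0.07 for HIS3 and -0.75 and 0.16 for LEU2. MET17 and URA3, the other deletion markers, had no value on any array. What the spots of HIS3 and LEU2 cover and which marker the chimera was built with are not given in sources used here. Of the 5 a-specific genes, the mating type of BY4741, 4 had values on arrays 1 and 2 (45.4% of all ORFs did), and MFA1 had none. None of the 3 alpha-specific genes had a value on any array, which also held for 37.6% of all ORFs. Since an empty cell gives no level, the mating type cannot be read from these counts. Among 5 sporulation genes, CRR1 had 0.16 and 0.29 on arrays 1 and 2.

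Paralogous genes differed in how close their values were. LEU4 minus LEU9 was 0.28 and 0.11 on arrays 1 and 2, and BAT1 minus BAT2 was 0.05 and -0.05. LYS20 minus LYS21 was 0.85 and 0.27, SER3 minus SER33 was -0.29 and -0.55, and SHM1 minus SHM2 was -0.24 and 0.36. ASN1 minus ASN2 was 0.28, 0.75 and -1.04 on arrays 1, 2 and 4.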
